A study of Mus musculus with 6 samples.

Results

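The cytosolic ribosomal protein genes encode the protein subunits of the ribosome that translates nuclear-encoded messages. They were taken as every probe set whose single platform gene symbol begins with Rps or Rpl followed by a number, or is Rplp0, Rplp1 or Rplp2. The S6 kinases, symbols ending in l1 and pseudogene symbols were left out, and the brightest probe set stood for each gene. This gave 52 genes, 22 with Rps and 30 with Rpl symbols, on 202 of the 8997 probe sets of the table. Of these 52, Rps19bp1 encodes a protein that binds the subunit Rps19 and is no subunit itself, and Rps4l is a paralog of the subunit gene Rps4x, so 50 belong to the 80 canonical subunits.

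Total RNA came from the radius and ulna of newborn mice of strain 129sv. There were 3 arrays of mutants carrying the del175k allele of Tnni2, the fast skeletal muscle troponin I gene, and 3 arrays of their wild-type littermates. The comparison asks which transcripts of the forming forearm bone differ with the mutation. The zygosity of the mutants is not given in the sources used here, nor is whether an array held the RNA of 1 mouse or of several, so the spread between arrays may be partly technical. Whole bones were measured, in which fewer cells of a type and less RNA per cell cannot be told apart.

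A ribosome has a small subunit, which reads the message, and a large subunit, which joins amino acids. Each subunit is a core of ribosomal RNA covered by proteins, nearly all present in a single copy, and cells that secrete much matrix, such as osteoblasts and chondrocytes, need many ribosomes. The messages of these proteins share a start of unbroken pyrimidines, the 5′ TOP tract, through which the kinase complex mTORC1 and the RNA-binding protein Larp1 control their translation. Mice with a lesion in some of these genes have defects of the skeleton, the pigment or the blood.

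The start of the transcript is shown where the RefSeq start itself opens with such a tract, a C followed by at least 4 bases that are C or T. Each line gives 5 bases before the start and the first 15 of the transcript, 5′ to 3′, from RefSeq on build GRCm38.p6, with the tract in capitals. RefSeq starts were matched for 40 of the 52 genes, and 8 of these 40 (20%) opened in this way, against 3.01% of 27025 gene symbols and 2.67% of 17491 protein-coding ones. A start annotated a few bases off would hide a tract, so these are counts of annotated starts.
Rps21, chr2:180257374-180257393, plus strand: ccgccCTCCTgcccaatagt
Rps6, chr4:86857353-86857372, minus strand: cgggcCTCTTTTTCgtgacg
Rpl28, chr7:4792960-4792979, plus strand: tgtctCTCTTTCCgtctccg
Rps15a, chr7:118116133-118116152, minus strand: gccatCTTCCCTCgccggtg
Rpl14, chr9:120571512-120571531, plus strand: tctctCTTCTCgctgagcgc
Rpl38, chr11:114668575-114668594, plus strand: tcgttCTTTCCCCgttctct
Rps10, chr17:27635230-27635249, minus strand: cgcccCTTCCTTTCCagcct
Rps18, chr17:33955651-33955670, minus strand: ccgctCTCTCTTCCacagga

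Upstream of the start, the letters CGGAAG, the core of sites read by ETS-family factors, were found on either strand between 250 bases before and 50 bases after the start in 28 of the 40 genes (70%). They were found in 18.8% of all gene symbols and 23.5% of the coding ones. The palindrome CTCGCGAG was found in 6 of the 40 (15%), namely Rpl10a, Rpl26, Rpl27a, Rps19, Rps28 and Rps6, against 1.04% of all and 1.41% of coding genes. GGGCGG was found in 57.5% of the 40 and in 49.2% of coding genes, and TATAAA in 12.5% and 14.8%. GGGCGG can overlap CGGAAG by its last 3 letters, and either is then counted. A match is a description of the sequence and not a bound site. The motifs were chosen with the sequences in view, so the shares are descriptions and not tests. The 100 bases before the start are shown for Rps6, which holds both kinds, for Rpl38, where a pair of copies abut, and for Rps7 and Rpl4, which are among the genes whose groups did not overlap. Capitals mark CGGAAG, its reverse complement CTTCCG and the palindrome.
Rps6, chr4:86857368-86857467, minus strand: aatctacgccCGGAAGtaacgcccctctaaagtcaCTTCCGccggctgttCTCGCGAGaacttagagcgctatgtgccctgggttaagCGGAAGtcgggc
Rpl38, chr11:114668480-114668579, plus strand: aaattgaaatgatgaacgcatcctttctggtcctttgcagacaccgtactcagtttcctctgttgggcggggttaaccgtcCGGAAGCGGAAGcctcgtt
Rps7, chr12:28635954-28636053, minus strand: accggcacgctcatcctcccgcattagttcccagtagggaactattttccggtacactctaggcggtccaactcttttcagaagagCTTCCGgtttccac
Rpl4, chr9:64173287-64173386, plus strand: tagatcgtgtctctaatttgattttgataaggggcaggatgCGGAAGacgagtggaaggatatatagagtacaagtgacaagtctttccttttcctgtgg

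The arrays differed in ways that touch every result below. The median intensity of the mutant arrays was 45.5 to 47.8, and wild-type 1, at 39.6, stood below them and below the other wild-type arrays (up to 48.4). Some markers of bone and cartilage were bright on every array, with Col1a1 between 6552 and 7807 and Col2a1 between 2540 and 4002. In the brightest 10% of probe sets lay 3 of 8 osteoblast and 7 of 12 cartilage markers measured. Others were dim, such as Ihh at 24.3 to 45.4. Muscle markers were present too. Markers of epidermis, 7 of 14 measured, summed to 85.1, 483 and 61.1 in the mutants and to 1839, 1281 and 58.6 in the wild-type. Tnni2 had 134, 127 and 198 in the mutants and 102, 165 and 258 in the wild-type, a level that does not check the genotype of a small deletion.

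The ribosomal protein genes were among the brightest signals. Their median brightness percentile was 94.4 among all probe sets, and 36 of the 52 lay in the brightest 10%. The 6 brightest were Rplp0, Rpl10, Rplp1, Rps2, Rps18 and Rps6, and the 6 dimmest Rpl30, Rps19bp1, Rps4l, Rps15a, Rpl22 and Rpl14. Single values ran from 15.6, for Rpl30 on wild-type 1, to 2418, for Rplp0 on mutant 2. Brightness depends on the probes and is not a scale on which the levels of different genes can be compared. All other values of the 52 genes were at or above 20.

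Mean log2 intensity was higher in the mutants for 45 of the 52 genes (86.5%) and lower for 7, where 56.7% of all probe sets were higher. The median log2 difference, mutant minus wild-type, was 0.21 for the 52 genes, with a range of -0.26 to 0.70, and 0.045 for all probe sets. Among the brightest 10% of probe sets it was 0.063, with 574 of 900 higher. With limma, 0 of the 52 genes passed an adjusted p of 0.05, as did 0% of all probe sets, and the smallest adjusted p was 0.667. At an unadjusted p under 0.05 there were 2 genes (3.85%), Rpl23 and Rpl5, against 7.44% of all probe sets. Both had higher means in the mutants, against 5.74% of all probe sets, and 0 genes had lower means at that p, against 1.7%. Among the brightest 10% of probe sets, 4.44% had an unadjusted p under 0.05, close to the share of the 52 genes. The share with a higher mean, 86.5%, was above that of the table and above the 63.8% of the brightest 10%.

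Large differences can be bounded. The 95% confidence interval of the log2 difference lay inside a 2-fold change in both directions for 50 of the 52 genes. Rpl5 (0.006 to 1.05) and Rps3a1 (-0.33 to 1.73) were the exceptions. The same held for 7146 of all 8997 probe sets and for 794 of the 900 brightest. The intervals rest on the spread between arrays, and if that is partly technical they are too narrow. The median standard error was 0.218. The genes were also even across arrays, with a median SD of log2 intensity over the 6 arrays of 0.247, against 0.292 for all probe sets and 0.266 for the brightest 10%. Rplp0 (0.121), Rpl36 (0.134) and Rpl37a (0.139) varied least, and Rps3a1 (0.814) and Rps21 (0.446) most.

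**Figure D1:**
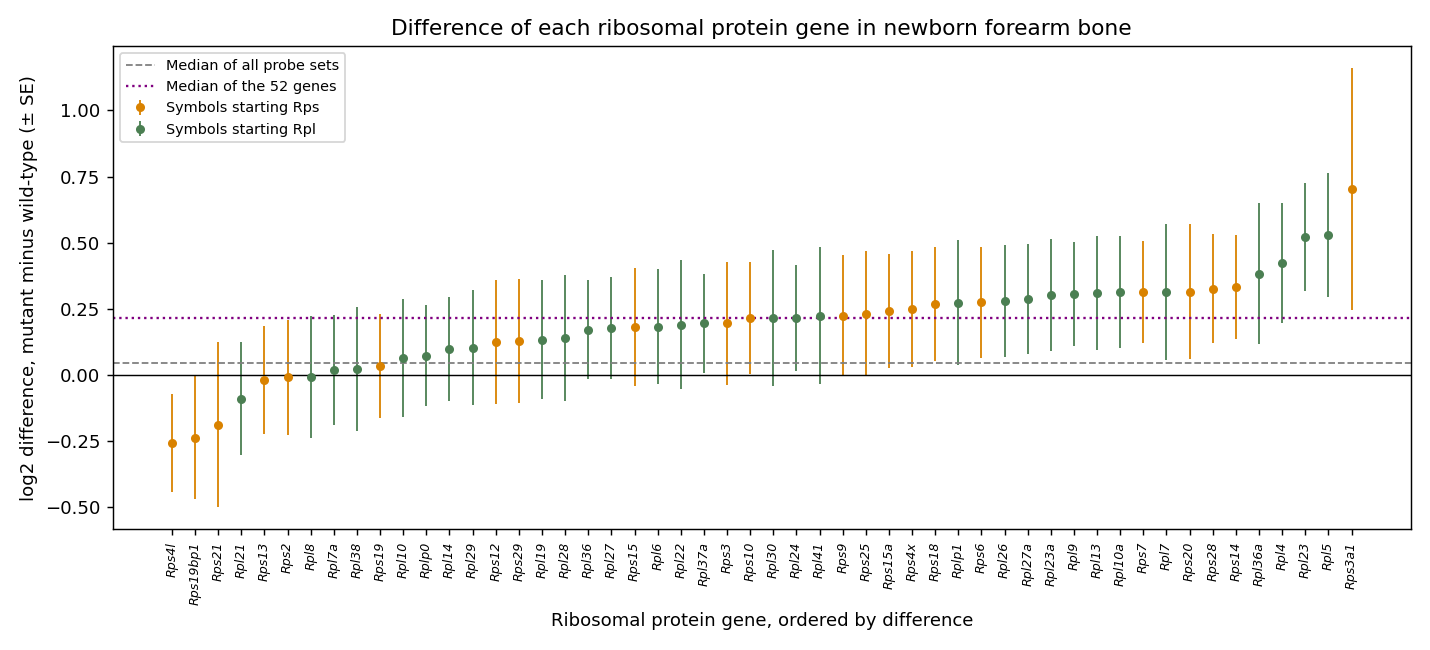
Log2 difference of each of the 52 genes, mutant minus wild-type, as points with the standard error of the limma fit, ordered from low to high, with Rps symbols in orange and Rpl symbols in green. The dotted line at 0.21 is the median of the 52 genes and the dashed line at 0.045 the median of all probe sets, and 45 points lie above 0.

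The higher means were carried unevenly by the arrays. Each gene's log2 intensity was set against its own mean over the 6 arrays, and the median over the 52 genes was -0.07, 0.12 and 0.25 on mutants 1 to 3, against -0.36, -0.02 and 0.07 on wild-types 1 to 3. The median of all probe sets was 0.02, 0.005 and 0.08 in the mutants, against -0.25, 0.06 and 0.07 in the wild-type. Relative to it, the ribosomal protein genes stood at -0.08, 0.12 and 0.17 in the mutants and at -0.11, -0.07 and 0.006 in the wild-type. Mutants 2 and 3 were thus the highest arrays, and mutant 1 lay below every array except wild-type 1, so the groups overlapped.

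Wild-type 1 was the lowest array for 36 of the 52 genes (69.2%), against 50% of all probe sets, and mutant 3 the highest for 35 (67.3%), against 18.8%. Without wild-type 1, which was also the dimmest array and had the highest epidermal sum, the median difference of the 52 genes was 0.075, with 36 higher, and that of all probe sets -0.033. Without mutant 3 the median was 0.11, with 38 higher, and without mutant 1 it was 0.29, with 50 higher. The median of all probe sets was 0.024 without mutant 3 and 0.065 without mutant 1. The share of all probe sets with a higher mean moved as well. It was 44.7% without wild-type 1, 52.8% without mutant 3 and 59.1% without mutant 1. The sign of 18 of the 52 genes turned when at least 1 of the 6 arrays was left out. The part of array brightness and of epidermal RNA in these differences was not tested.

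The summed intensity of the 52 genes was 2.02%, 2.29% and 2.33% of each mutant array's total and 1.83%, 2.01% and 2.01% of each wild-type array's total. All 3 mutant shares lay above all 3 wild-type shares, with mutant 1 only just above wild-types 2 and 3. The share is a description of signal, since probe sets differ in brightness per molecule.

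**Figure D2:**
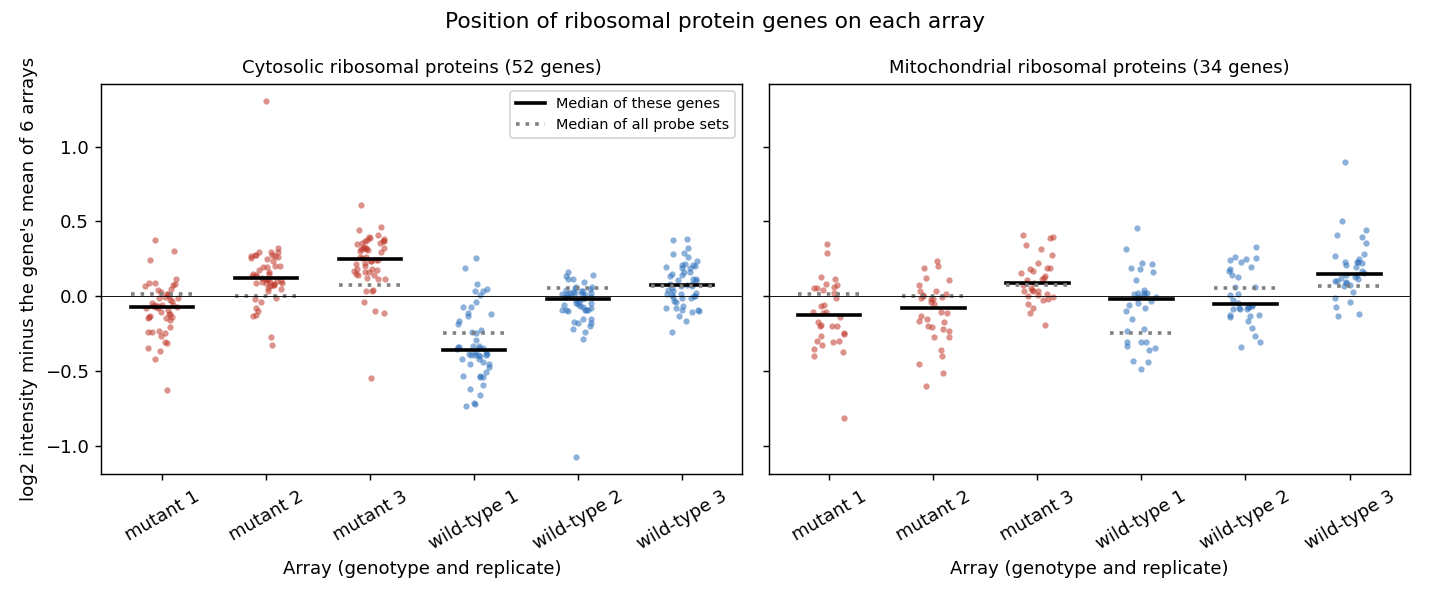
Log2 intensity of each gene minus its own mean over the 6 arrays, by array, for the 52 cytosolic (left) and 34 mitochondrial (right) ribosomal protein genes. Solid bars are the medians of the genes shown and dotted bars those of all probe sets, and the cytosolic median is highest on mutant 3 (0.25) and lowest on wild-type 1 (-0.36).

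All mutant arrays lay above all wild-type arrays for 7 of the 52 genes (13.5%), against 9.18% of all probe sets, and all below for 1 gene (1.92%), against 3.89%. The 7 were Rpl4, Rpl5, Rpl9, Rpl23, Rpl24, Rps7 and Rps14, and the 1 was Rps4l. Among the 30 genes of the large subunit, 28 had a higher mean in the mutants, with a median difference of 0.20. Among the 20 canonical genes of the small subunit, 17 were higher, with a median of 0.23. The subunits thus had nearly the same median, and a difference between them was not tested.

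Rpl23, a large-subunit protein at the interface with the small subunit that can also bind the p53 regulator Mdm2, had 538, 552 and 546 in the mutants and 313, 454 and 387 in the wild-type. The mutant arrays were nearly equal at 545 ± 7.22, and the wild-type arrays were spread at 385 ± 70.7 (SD, n = 3 each). The log2 difference was 0.52 ± 0.21 (SE), or 1.43-fold, with a limma adjusted p of 0.667. It was 0.38 without wild-type 1.

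Rpl5, which carries the small ribosomal RNA of the large subunit together with Rpl11 and binds Mdm2 when ribosome assembly is disturbed, had 953, 879 and 821 in the mutants and 449, 733 and 696 in the wild-type. The groups did not overlap, and wild-type 1 was far below the other wild-type arrays. The log2 difference was 0.53 ± 0.23 (SE, limma adjusted p = 0.669), and 0.31 without wild-type 1. All 5 probe sets named Rpl5 gave between 0.43 and 0.53.

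Rpl4, which lines the tunnel through which the new chain leaves, had 380, 436 and 444 in the mutants and 236, 378 and 342 in the wild-type. Mutant 1 and wild-type 2 nearly touched. The log2 difference was 0.42 ± 0.23 (SE, limma adjusted p = 0.708), and 0.22 without wild-type 1. Rpl9 had 1022, 1183 and 1090 in the mutants and 763, 974 and 942 in the wild-type, and again the lowest mutant array stood close to the highest wild-type array. Its log2 difference was 0.30 ± 0.20, and its 8 probe sets lay between 0.23 and 0.31.

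Rpl24 is mutated in the Belly spot and tail mouse, which has a kinked tail and white spotting. It had 609, 602 and 639 in the mutants and 436, 595 and 577 in the wild-type. Only wild-type 1 stood clearly apart, and the log2 difference of 0.22 ± 0.20 was 0.073 without it.

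On the small subunit, Rps14, whose loss in humans contributes to the anaemia of the 5q- syndrome, had 938, 1022 and 960 in the mutants and 656, 812 and 865 in the wild-type. The groups did not overlap, and the log2 difference was 0.33 ± 0.20 (SE, limma adjusted p = 0.720). Rps7 had 610, 687 and 707 in the mutants and 471, 562 and 584 in the wild-type, a log2 difference of 0.31 ± 0.19. Both stood at 0.22 without wild-type 1. Rps28 had 387, 453 and 495 in the mutants and 301, 397 and 369 in the wild-type, where mutant 1 lay below wild-type 2, and its log2 difference was 0.33 ± 0.21.

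**Figure D3:**
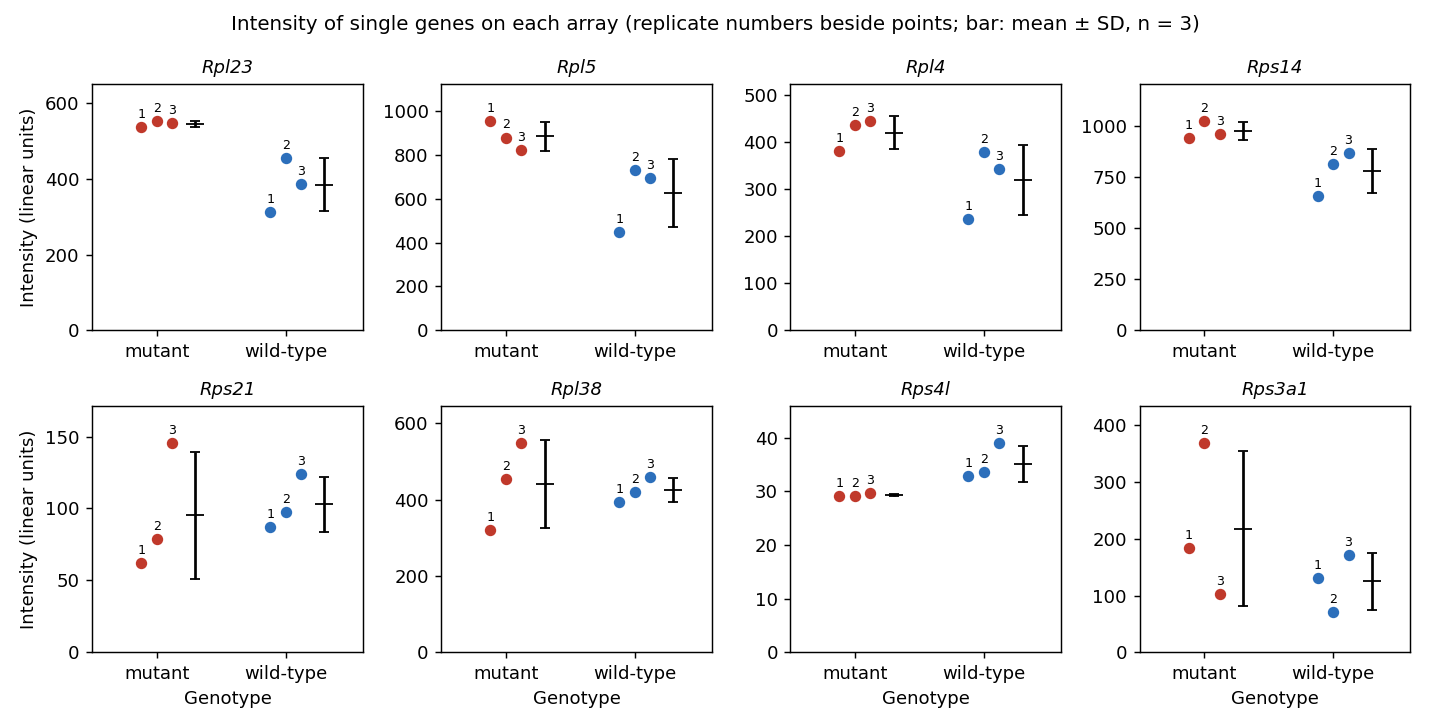
Intensity on a linear axis for 8 genes, mutant at left and wild-type at right of each panel, with a point for each array, its replicate number, and the mean ± SD of 3 arrays. Rpl23, Rpl5, Rpl4 and Rps14 have no overlap with the mutants higher, Rps4l has none with the mutants lower, and Rps21, Rpl38 and Rps3a1 overlap.

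The lower genes included both that are not canonical subunits. Rps4l had 29.1, 29.2 and 29.6 in the mutants and 32.9, 33.6 and 39.0 in the wild-type. All mutant values lay below the wild-type values, at a dim signal, and the log2 difference was -0.26 ± 0.19 (SE, limma adjusted p = 0.751). Rps19bp1 had 30.9, 24.6 and 30.1 in the mutants and 36.8, 25.3 and 40.3 in the wild-type, which overlapped, with a log2 difference of -0.24 ± 0.23. Rps4x, the subunit gene of which Rps4l is a paralog, was at 0.25.

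The other lower genes were Rps21, Rpl21, Rps13, Rps2 and Rpl8. Rps21 had 61.8, 79.0 and 145 in the mutants and 87.1, 97.6 and 124 in the wild-type. Mutant 3 was its highest array and mutants 1 and 2 its lowest, so that the log2 difference of -0.19 ± 0.31 was 0.076 without mutant 1. Rpl21 had 465, 684 and 614 in the mutants and 633, 661 and 563 in the wild-type, where mutant 1 alone was low. Its log2 difference was -0.09 ± 0.21, and it turned to 0.069 without mutant 1 and to 0.018 with array weights. Rps2, of the entry channel for the message, had 1332, 1528 and 1889 in the mutants and 1328, 1676 and 1762 in the wild-type. Its log2 difference of -0.01 was far smaller than its SE of 0.22, as were those of Rps13 (-0.02) and Rpl8 (-0.008), and the groups of all 3 genes overlapped. The sign of each of the 3 turned when single arrays were left out.

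The stalk, a flexible arm of the large subunit that recruits the elongation factors, was measured through Rplp0 and Rplp1. Rplp0 had 2066, 2418 and 2242 in the mutants and 2122, 1931 and 2351 in the wild-type. The groups overlapped throughout, and the log2 difference was 0.07 ± 0.19, with a 95% confidence interval of -0.36 to 0.50. Rplp1, its partner, had 1496, 1834 and 2073 in the mutants and 1172, 1463 and 1881 in the wild-type, a log2 difference of 0.27 ± 0.24 with overlap.

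Rps6, the substrate of the S6 kinases downstream of mTORC1, had 1532, 1771 and 1622 in the mutants and 1117, 1638 and 1362 in the wild-type. Wild-type 1 was lowest and mutant 2 highest, and mutants 1 and 3 lay below wild-type 2. The log2 difference was 0.27 ± 0.21, and all 8 probe sets named Rps6 gave between 0.27 and 0.32. Rpl10, which joins the large subunit late in its assembly, had 1570, 2415 and 2244 in the mutants and 1838, 2162 and 1879 in the wild-type. Mutant 1 was its lowest array, and the log2 difference of 0.06 ± 0.22 was -0.058 without mutant 2 and -0.005 without mutant 3.

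The 8 genes with a pyrimidine tract at the annotated start, shown above, had log2 differences between -0.19 for Rps21 and 0.27 for Rps6, with a median of 0.18 and 7 higher, beside a median of 0.22 for the other 32 matched genes. The 28 genes with CGGAAG had a median of 0.21, with 24 higher, and the other 12 a median of 0.21, with 12 higher. The 6 genes with CTCGCGAG had a median of 0.28, and the other 34 one of 0.20.

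Of 18 genes in which human mutations cause Diamond-Blackfan anaemia or a related loss of red cells, 8 were measured under the rule. All 8 had a higher mean in the mutants, with a median difference of 0.25 and 0 past the adjusted threshold. Of all 52 genes, 45 (86.5%) were higher, with a median of 0.21. The 8 were Rpl5, Rps7, Rps28, Rpl26, Rps10, Rpl27, Rps29 and Rps19. Rps10 had 556, 624 and 728 in the mutants and 461, 551 and 637 in the wild-type, and Rps29 had 138, 168 and 209 in the mutants and 127, 156 and 186 in the wild-type. In both, wild-type 1 was lowest, mutant 3 highest and the groups interleaved, with log2 differences of 0.21 ± 0.21 and 0.13 ± 0.23, and Rps29 turned to -0.033 with array weights. Rpl26, which helps the translation of p53 messages, was at 0.28 ± 0.21, with 62.4, 69.1 and 86.0 in the mutants and 51.7, 66.1 and 60.7 in the wild-type. Rpl27 had 203, 227 and 245 in the mutants and 188, 187 and 221 in the wild-type, where mutant 1 lay below wild-type 3, and was at 0.18 ± 0.19. Rps19, the first gene found in that disease, had 67.6, 88.3 and 68.3 in the mutants and 73.5, 71.0 and 72.7 in the wild-type. Only mutant 2 stood out, and the log2 difference of 0.03 ± 0.20 turned to -0.022 under median centring and to -0.026 under quantile normalization.

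Of 7 genes with mouse mutants of the skeleton or the pigment, all 7 had a higher mean, with a median difference of 0.27 and 0 past the adjusted threshold. This again stands beside 45 of all 52 genes (86.5%) and a median of 0.21. Rpl38, lost in the Tail-short mouse with its patterning defects of the axial skeleton, had 320, 454 and 548 in the mutants and 395, 421 and 458 in the wild-type. Mutant 1 was its lowest and mutant 3 its highest array, with all wild-type arrays between, so the log2 difference was 0.02 ± 0.23. Its sign turned under median centring (-0.035), quantile normalization (-0.075) and array weights (-0.030). Rps20, mutated in a dark-skinned mouse, had 521, 601 and 710 in the mutants and 343, 554 and 607 in the wild-type, a log2 difference of 0.32 ± 0.26 that was 0.063 without wild-type 1. Rpl27a, mutated in the sooty foot ataxia mouse, was at 0.29 ± 0.21. The remaining members were Rps6, Rps7, Rps19 and Rpl24, of which Rps7 and Rps19 are also among the anaemia genes above.

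Rpl13 and Rpl29 have a known part in the skeleton as well and were added after their values were seen. Variants of human RPL13 cause a spondyloepimetaphyseal dysplasia, and the mouse gene had 412, 557 and 560 in the mutants and 350, 435 and 444 in the wild-type. Mutants 2 and 3 lay well above all wild-type arrays while mutant 1 lay below wild-types 2 and 3, and the log2 difference was 0.31 ± 0.21. Mice without Rpl29 are small, and here it had 88.6, 128 and 105 in the mutants and 117, 90.2 and 91.2 in the wild-type. Mutant 1 was its lowest and mutant 2 its highest array, and the log2 difference was 0.10 ± 0.22.

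Rps18, among the brightest genes, had 1442, 1584 and 1947 in the mutants and 1150, 1404 and 1582 in the wild-type, a log2 difference of 0.27 ± 0.22 with overlap. The dim Rps15a had 29.6, 35.5 and 42.8 in the mutants and 26.0, 32.4 and 32.4 in the wild-type, at 0.24 ± 0.22. Both were lowest on wild-type 1 and highest on mutant 3, although their signals were far apart. Rpl19, Rpl28, Rps15, Rpl6, Rps3, Rpl41, Rps9, Rps25, Rpl23a, Rpl10a, Rpl7 and Rpl36a lay between 0.13 (Rpl19) and 0.38 (Rpl36a), and in each the groups overlapped.

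Probe sets that carry the same name gave similar differences. Of the 52 genes, 36 had more than 1 probe set, and in 31 of these every probe set was lowest on the same array. The median range of the log2 difference among the probe sets of a gene was 0.082, and the signs differed in 5 genes, Rpl7a, Rps2, Rps12, Rps13 and Rps21. The largest range, 0.277, was in Rps2, whose 3 probe sets lay between -0.19 and 0.08. Over all 202 probe sets, 184 had a higher mean in the mutants, with a median of 0.22.

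Such probe sets are not independent measurements. Ribosomal protein genes have many processed copies in the mouse genome, and a probe set may read the gene, a copy or both. The 14 probe sets named Rps12 held 8 distinct sets of values, and the 3 named Rpl41 held 1. A further 233 probe sets listed a name of the 52 genes among several symbols, and for 9 of the 52 genes such a probe set was brighter than the one used, with 34 brighter ones for Rpl29 and 15 for Rps2. Of the 233, 181 (77.7%) had a higher mean in the mutants, and 0 had an unadjusted limma p under 0.05. Their median log2 difference was 0.083, against 0.21 for the 52 genes and 0.045 for all probe sets. The size of the difference thus depended on which probe sets were taken. Of the 80 canonical subunits, 18 were listed only among several symbols. For 10, no probe set carried the symbol, alone or among several. A further 2, Rpsa (0.16 ± 0.25) and Fau (0.02 ± 0.25), had a named probe set that the rule leaves out.

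**Figure D4:**
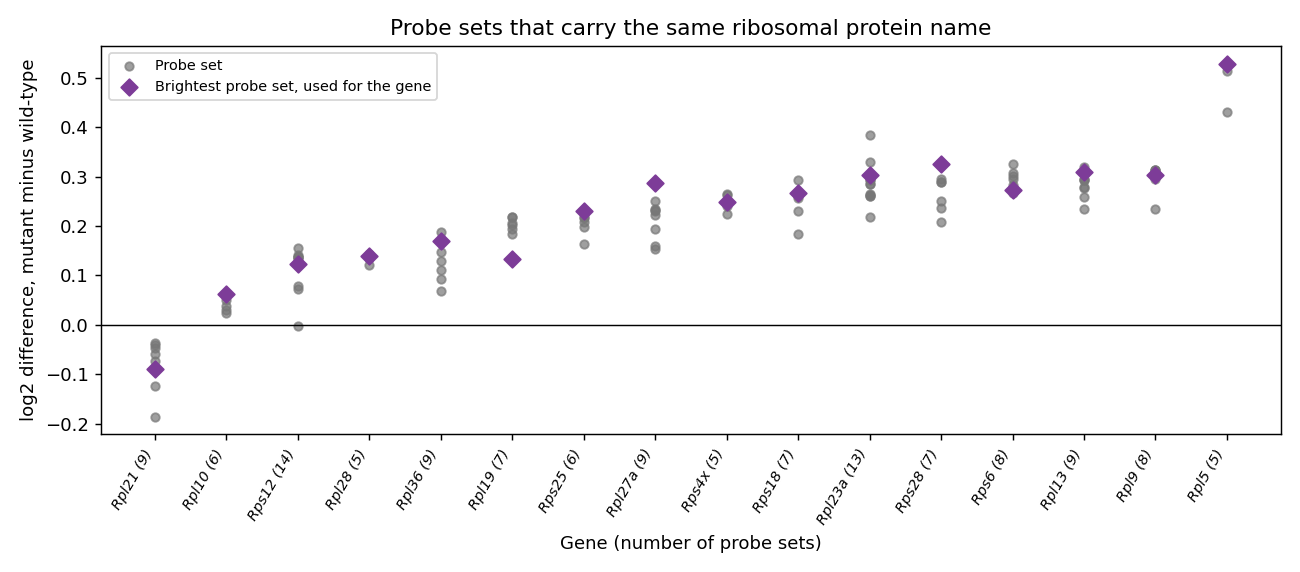
Log2 difference, mutant minus wild-type, of every probe set of the genes with at least 5 probe sets, with the number of probe sets beside the gene's name and the brightest, which stood for the gene, as a diamond. The probe sets of Rpl5 lie between 0.43 and 0.53 and those of Rpl21 between -0.19 and -0.04.

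Some members were dim, and there the measurement may miss the main transcript. Values under 100 on every array were found in 9 genes, namely Rpl30, Rps19bp1, Rps4l, Rps15a, Rpl22, Rpl14, Rps13, Rpl26 and Rps19, and 3 of the 9 had a brighter probe set listed under several symbols. Rpl30, the dimmest, had 21.5, 22.4 and 30.1 in the mutants and 15.6, 21.6 and 27.7 in the wild-type, with overlap and a log2 difference of 0.21 ± 0.26. Rpl22 had 36.4, 41.2 and 49.0 in the mutants and 27.1, 40.4 and 45.3 in the wild-type, and Rpl14 39.1, 36.7 and 46.5 in the mutants and 40.6, 34.2 and 39.4 in the wild-type. Both overlapped.

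Rps3a1, named after its values were seen, had the largest difference and the least even values. It had 184, 368 and 102 in the mutants and 131, 71.1 and 172 in the wild-type, so that mutant 3 lay below wild-types 1 and 3. The log2 difference was 0.70 ± 0.46 (SE, limma adjusted p = 0.729), with 0.23 as the lowest and 1.15 as the highest value when an array was left out.

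Other messages with a 5′ TOP tract, mostly translation factors, were higher in 17 of the 20 measured of 24. This was 85%, with a median difference of 0.31, against 56.7% and 0.045 for all probe sets. At an unadjusted limma p under 0.05 there were 5 (25%, against 7.44% of all probe sets). The list was chosen with earlier results of these data known, so the share is a description and not a test. Eif4b, a helper of the helicase that opens messages, had 193, 158 and 150 in the mutants and 82.6, 140 and 94.1 in the wild-type, without overlap, a log2 difference of 0.69 ± 0.24 (limma adjusted p = 0.638). Eif3e, a subunit of the initiation factor that binds the small subunit, had 54.0, 71.2 and 58.8 in the mutants and 22.8, 41.5 and 45.8 in the wild-type, at 0.79 ± 0.28 (adjusted p = 0.638). Relative to all probe sets this list stood at 0.06, 0.20 and 0.12 in the mutants and at -0.27, 0.02 and -0.13 in the wild-type, so all mutant arrays lay above all wild-type arrays.

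Of 69 ribosome biogenesis genes, 30 were measured, 18 higher (60%) and 12 lower, with a median difference of 0.03. Over all probe sets 56.7% were higher, with a median of 0.045. Imp3, of the complex that processes the small-subunit RNA, was at 0.63 ± 0.28 (limma adjusted p = 0.671), and Nhp2, a protein of the particles that modify ribosomal RNA, at -0.39 ± 0.20 (adjusted p = 0.708). RNA polymerase I and its factors, which transcribe ribosomal RNA, were higher in 7 of 8 measured of 15, with a median of 0.17. Taf1a was at 0.69 ± 0.26 (adjusted p = 0.664) and Rrn3 at 0.43 ± 0.27 (adjusted p = 0.725).

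A list drawn up for mTORC1 and the S6 kinases was higher in 14 of 19 genes measured of 27. This was 73.7%, with a median of 0.11, against 56.7% and 0.045 for all probe sets. At an unadjusted limma p under 0.05 there were 6 (31.6%, against 7.44% of all probe sets). The list was chosen with earlier results of these data known and holds the inhibitor Ddit4 beside other members. Neither count is thus a test of the pathway. The smallest p-values were those of Depp1, at 2.08 ± 0.26 (limma adjusted p = 0.155), and of the inhibitor Ddit4, at 2.14 ± 0.33 (adjusted p = 0.231). Depp1 itself is neither a subunit of mTORC1 nor an S6 kinase. Mitochondrial ribosomal proteins, which serve a separate ribosome, were higher in 8 and lower in 26 of 34 genes, with a median of -0.10. Mrpl9 was at 0.45 and Mrps21 at -0.51. Relative to all probe sets they stood at -0.14, -0.08 and 0.01 in the mutants and at 0.23, -0.11 and 0.08 in the wild-type. The high relative value fell on wild-type 1, the array where the cytosolic genes were lowest. Their own median there was -0.02, below wild-type 3 (0.15) and mutant 3 (0.09), while that of all probe sets was -0.25.

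Markers of dividing cells, 14 of 19 measured, summed to 574, 527 and 749 in the mutants and to 702, 683 and 1008 in the wild-type. Their highest sum was on wild-type 3, an array on which the cytosolic ribosomal protein genes stood near the median of all probe sets (0.006). Fast muscle markers, 16 of 19 measured, summed to 6593, 6841 and 8720 in the mutants and to 5123, 7894 and 10435 in the wild-type, and were lowest on wild-type 1, as the ribosomal protein genes were. Cartilage markers, 12 of 12 measured, were also lowest there, with 7751, 7716 and 6915 in the mutants and 5013, 7660 and 7724 in the wild-type. Osteoclast markers, 6 of 10 measured, summed to 1862, 1312 and 1683 in the mutants and to 689, 1015 and 1172 in the wild-type, without overlap and again lowest on wild-type 1. Slow muscle markers, 9 of 10 measured, summed to 681, 709 and 1031 in the mutants and to 453, 793 and 855 in the wild-type, lowest on wild-type 1 and highest on mutant 3, as the ribosomal protein genes were. Osteoblast markers, 8 of 11 measured, were lowest on wild-type 1 (11372) and highest on mutant 3 (14507) too. Wild-type 1 was the lowest array for 50% of all probe sets as well. Erythroid markers, 4 of 13 measured, summed to 555, 287 and 207 in the mutants and to 352, 163 and 354 in the wild-type. Myeloid markers, 8 of 11 measured, summed to 360, 353 and 420 in the mutants and to 337, 275 and 485 in the wild-type. Both sums were lowest on wild-type 2. The part of the mix of cells in the ribosomal protein values was not tested.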

How the data were processed

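RNA from 6 newborn forearm bone samples, 3 mutant and 3 wild-type, was hybridised to Affymetrix whole-transcript arrays. The values the authors deposited are linear intensities of 8997 probe sets. How they corrected background, summarised probes and scaled arrays is not given in the sources used here. Every probe set reached 20 on at least 3 arrays. The number of arrays limits the precision.

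Symbols came from the platform annotation, and all 52 had the same symbol in RefSeq (GRCm38.p6) by Entrez identifier. Log2 was taken without rescaling. All probe sets were fitted with limma 3.58.1 in R 4.3.3 (lmFit, eBayes), two-sided, with Benjamini-Hochberg adjustment over the 8997 and a threshold of 0.05. Python 3.11.15, pandas 2.3.3, scipy 1.17.1 and matplotlib 3.10.9 made tables and plots. The fit was tested on simulated data. Promoters came from RefSeq, and motifs were chosen with the sequences in view.

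Genes and lists were chosen with earlier results of these data known. Named were the 6 brightest and 6 dimmest genes, the 6 of smallest p per direction, those whose groups did not overlap, the stalk, paralog and disease or mouse-mutant genes, those whose probe sets differ in sign, the nearest genes outside the rule, and the 2 of smallest p in other lists. Other genes were named beyond this after their values were seen.

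Alternatives were quantile normalization, median centring, array weights, an intensity trend with robust variances, leaving out the dimmest 25% of probe sets, the mean over a gene's probe sets, the replicate number as a block, an adjusted p of 0.1 and leaving out each array.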

Additional observations from a re-analysis of the deposited data

How the results depend on the processing

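Under every alternative run, 0 of the 52 genes passed, at an adjusted p of 0.1 as well. The median difference stayed above 0: it was 0.093 with array weights (39 higher), 0.16 with median centring and 0.13 with quantile normalization (42 higher each), 0.21 over the mean of a gene's probe sets (46 higher) and 0.21 without the dimmest 25% of probe sets (44 of 51 higher). Leaving out each array gave 0.075 to 0.30, with 36 to 50 higher, while 44.7% to 62.5% of all probe sets were higher. Of the 52 genes, 10 turned sign with array weights: Rpl21 (0.018) and Rps13 (0.0039) to higher, and Rpl19 (-0.035), Rpl22 (-0.028), Rpl28 (-0.025), Rpl30 (-0.057), Rpl38 (-0.030), Rpl41 (-0.067), Rps12 (-0.031) and Rps29 (-0.033) to lower. With median centring 3 turned, Rpl38 (-0.035), Rpl7a (-0.040) and Rps19 (-0.022), as they did with quantile normalization (Rpl38 -0.075, Rpl7a -0.032, Rps19 -0.026), and with the mean over probe sets 1 did, Rps13 (0.048); the cause was not tested. When single arrays were dropped, 18 genes turned sign at least once: Rpl10 ranged from -0.058 to 0.25, Rpl14 from -0.0015 to 0.17, Rpl19 from -0.0025 to 0.28, Rpl21 from -0.21 to 0.069, Rpl22 from -0.030 to 0.34, Rpl28 from -0.021 to 0.30, Rpl29 from -0.033 to 0.23, Rpl30 from -0.0015 to 0.41, Rpl38 from -0.15 to 0.23, Rpl41 from -0.017 to 0.44, Rpl7a from -0.071 to 0.17, Rpl8 from -0.18 to 0.12, Rps12 from -0.039 to 0.27, Rps13 from -0.11 to 0.13, Rps19 from -0.092 to 0.10, Rps2 from -0.14 to 0.11, Rps21 from -0.54 to 0.076 and Rps29 from -0.023 to 0.28. Over all probe sets, limma called 0 with all arrays, against 4 with array weights and 15 without mutant 3, none of these among the 52 genes. The unadjusted count over all probe sets was 669, against 1412 with array weights, 322 without mutant 1 and 393 without mutant 2. The share of higher means over all probe sets, 56.7%, was 48.3% with median centring, 47.6% with quantile normalization and 46.2% with array weights.

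The labels do not say whether the replicate numbers pair the samples. Same-numbered arrays correlated at -0.107, -0.026 and 0.315 in their deviations from the group means, and not every array correlated best with its own number. With 3 arrays per group these correlations constrain each other, so they cannot settle whether samples were paired. With the replicate number as a block, the median was 0.21, 0 genes passed, and 1 gene had an unadjusted p under 0.05. Signal over background limits the dimmest genes, since background handling is not given in the sources used here.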
